A study of Mus musculus with 2 samples.

Results

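The H3K36me3 peaks described here lay in an intron other than the first and were assigned to a transcript shorter than 100 kb. They were taken from the deposited peak table by 3 conditions: the class was intron, the intron number was not 1, and the length of the assigned transcript was below 100000 bp. The conditions selected 10294 of 45575 peaks (22.6%), which is 68.8% of the 14954 intron peaks. The remaining intron peaks were 3663 first-intron peaks and 997 later-intron peaks assigned to a transcript of 100 kb or longer. Every one of the 10294 peaks was matched to its transcript in the mouse GENCODE vM21 annotation (GRCm38), and all lay wholly inside the intron named for them.

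The mark was mapped by ChIP-seq in primary keratinocytes (KCs), the epithelial cells of the epidermis, of 10-week-old Setd2 fl/fl mice on a C57BL/6 background. These mice carry loxP sites in Setd2 and served as the study's controls, so the methyltransferase gene was intact in the cells measured. The data hold 1 ChIP library and 1 input library, and only peaks of the ChIP library were analysed here. With 1 library there is no spread between samples, no test between conditions can be made, and all intervals below cover counting error only.

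H3K36me3 is deposited by SETD2, which travels with elongating RNA polymerase II, so the mark lies over the bodies of transcribed genes and usually grows towards their 3′ ends. An intron is removed from the nascent RNA by splicing, and the mark is known to be denser over exons than over introns in many genes. Broad domains that cross exons are classed by the exon or untranslated region they touch. A peak is classed as intronic only when it touches neither and is not in the promoter class near a transcript start. The peaks described here are therefore enriched stretches that ended before the next exon on both sides, and 3 of 10294 lay directly against an exon.

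Sequence from inside 4 of the peaks shows their range. Each line gives the middle 200 bases of a peak, or the whole of the narrowest one, on the strand of the gene and from the GRCm38 reference, with every CG in capitals. The peak in Fam172a had the highest fold enrichment (4.63), the peak in Nfix was the widest (15709 bp), the peak in Eri3 is 1 of the narrowest (247 bp) and the peak in Exoc4 had the most CG (99.7 per kb). The stretches lie at chr13:77769066-77769265 (plus strand), chr8:84752287-84752486 (minus strand), chr4:117558513-117558759 (plus strand) and chr6:33270824-33271023 (plus strand).
Fam172a: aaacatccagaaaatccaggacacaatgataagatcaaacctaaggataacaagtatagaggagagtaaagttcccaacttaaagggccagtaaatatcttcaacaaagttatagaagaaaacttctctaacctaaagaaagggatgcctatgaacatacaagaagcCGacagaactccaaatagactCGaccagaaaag
Nfix: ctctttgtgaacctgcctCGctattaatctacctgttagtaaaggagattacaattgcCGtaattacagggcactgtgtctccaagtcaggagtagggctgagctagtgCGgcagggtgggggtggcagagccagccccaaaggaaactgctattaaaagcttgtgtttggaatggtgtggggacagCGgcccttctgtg
Eri3: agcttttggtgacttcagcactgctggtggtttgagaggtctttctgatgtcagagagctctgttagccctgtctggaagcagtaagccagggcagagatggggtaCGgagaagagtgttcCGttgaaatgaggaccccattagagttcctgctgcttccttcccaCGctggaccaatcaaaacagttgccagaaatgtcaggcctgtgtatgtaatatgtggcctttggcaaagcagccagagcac
Exoc4: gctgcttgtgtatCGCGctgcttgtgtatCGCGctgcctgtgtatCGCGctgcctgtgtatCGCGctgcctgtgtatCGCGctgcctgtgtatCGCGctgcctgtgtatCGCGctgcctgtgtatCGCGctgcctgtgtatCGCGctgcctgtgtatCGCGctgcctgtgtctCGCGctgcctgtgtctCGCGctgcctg
The Exoc4 stretch is a tandem repeat with 24 CG in 200 bases, and the Fam172a stretch holds 2 CG. The Nfix stretch holds 4 CG and the Eri3 peak 3. Across all members the CG count had a median of 8.16 per kb and ran from 0 to 99.7.

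Among the introns that hold a member, 7 begin with AT and end with AC, in place of the usual GT and AG. Such introns are removed by the minor spliceosome, a low-abundance machine that recognises an extended start of the intron. The first 30 bases of these introns are printed in the direction of transcription with the opening AT in capitals, followed by an ordinary GT intron of Tacc2 whose member starts at the first intron base.
Xpo4: ATatccttttaacagcgagaggggttgagc
Rapgef5: ATatccttcattaactgcaggacaccgttg
Cul4a: ATatcctttctttgttttgctttttttttt
Ctnnbl1: ATatccttgagatctgtgcggtggaagtct
E2f5: ATatccttctgagtaagttatatatatata
Brcc3: ATatccttaataatgcatgagatgctttgt
Gbe1: ATatccttttctctgccagtgcatgtgcct
Tacc2: GTacagtagaagcacggctgggtctggcta
All 7 AT-AC introns start with the same 8 bases, ATATCCTT on the gene strand. Of 6463 introns with a member, 7 (0.108%) were AT-AC, and of all 42304 later introns of the same transcripts 36 (0.0851%) were AT-AC, 34 of them with this start. The start ATATCCTT was found in 41 of the 42304 introns (0.0969%). The same start with GT in place of AT, GTATCCTT, went the other way. It was found in 10 of the 6463 introns with a member (0.155%) and 91 of the 42304 (0.215%). With counts this small, no difference is read from either start. Members in AT-AC introns were of ordinary size and strength apart from the one in Xpo4, a nuclear export receptor, which was 7341 bp wide with a fold enrichment of 3.37 in intron 6 of 22. The other 7 members in these introns, with a pair in Ctnnbl1, were 427 to 2840 bp wide with a fold enrichment of 2.56 to 2.86. By peak, 10220 of 10294 members (99.3%) lay in GT-AG introns, 46 in GC-AG introns, 8 in AT-AC introns and 20 in introns with other ends.

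The length in the rule belongs to the transcript with the nearest start site (TSS), not to the transcript whose intron holds the peak. The assigned transcripts had a median length of 8681 bp (54 to 99996 bp). The transcripts whose introns hold the peaks, called host transcripts here, had a median length of 110527 bp (95% interval 109063 to 113610). Of the 10294 members, 5636 (54.8%, interval 53.8 to 55.7) lay in host transcripts of 100 kb or longer. The data therefore go against the description of these peaks as peaks in shorter transcripts, and they are called members of the later-intron set below. Near the threshold, members in Itsn2 and Prep were assigned to transcripts of 99923 and 99996 bp, and later-intron peaks in Huwe1 and Sema3c, assigned to transcripts of 100170 and 100171 bp, fell outside.

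**Figure D1:**
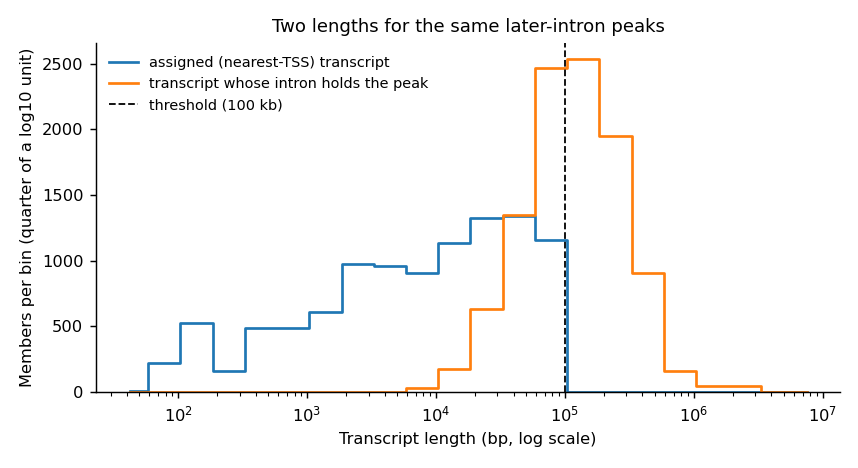
Histogram of 2 lengths for the same 10294 members on a log scale in bp: the assigned transcript, on which the rule cuts, and the host transcript, whose intron holds the peak; the y axis counts members per bin and the dashed line marks 100 kb. The assigned lengths end at the line (median 8681 bp), and the host lengths lie around it (median 110527 bp).

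The intron belonged to the assigned gene for 6280 members (61.0%, interval 60.1 to 62.0). The other 4014 members were assigned to a different gene, and 871 of them (21.7%) to a processed pseudogene, 759 to another protein-coding gene, 661 to a gene model still to be tested by experiment (TEC), 603 to an antisense RNA and 278 to a microRNA gene. The peak overlapped the body of its assigned transcript in 29.3% of cases. Shorter assigned transcripts were more often foreign: below 1 kb, 117 of 1891 members (6.19%) lay in an intron of the assigned gene, against 1310 of 1416 (92.5%) at 50 to 100 kb.

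Sptlc3, a subunit of the enzyme that starts sphingolipid synthesis, shows what this does to a single gene. It held 11 members in 5 of its later introns, and all 11 were assigned to Gm27385, a model of 104 bp, although the host transcript is 143144 bp long. These 11 members were 317 to 5518 bp wide with a fold enrichment of 2.47 to 3.76, against 247 to 15709 bp and 2.32 to 4.63 over all members. Vwa8 held 22 members in 16 introns and none was assigned to Vwa8 itself. In total 756 host genes had members but none assigned to them, and of the 1915 genes with 2 or more members 829 (43.3%) had them spread over 2 or more assigned genes.

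The position of each member was counted as the order of its intron among the introns of the host transcript, from 0 for the first to 1 for the last. The median position was 0.45 (interval 0.44 to 0.47), with quartiles of 0.20 and 0.75. Members past the middle of the intron order made up 42.4%. By distance along the gene body rather than intron order, the median position of the peak midpoint was 0.590 (interval 0.583 to 0.597), so the members sat later along the DNA than in the count of introns.

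Intron 2 held 2408 members (23.4%), the most of any single intron number, and the last intron held 1204 (11.7%, interval 11.1 to 12.3). By quintiles of the intron order, 26.8% of members lay in the first quintile, 20.2% in the second, 16.9% in the third, 14.6% in the fourth and 21.5% in the last. The share in the last intron differed with the number of introns. It was 55.8% in transcripts of 2 to 4 introns, where few later introns precede the last, 5.81% at 10 to 19 introns and 0.697% at 50 or more.

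These shares went with the length of intron available. In 2580 host transcripts with 6 or more introns, 23.8% of the introns in the first quintile held a member, against 14.1%, 11.6%, 10.5% and 11.2% in the next quintiles, while the median intron length went from 3246 bp in the first quintile to 1704 bp in the last. Per Mb of intron there were 37.8 members in the first quintile, 40.5 in the second, 39.4 in the third, 39.1 in the fourth and 38.4 in the last. Among introns of 10 to 20 kb only, the share with a member was 59.5% in the first quintile and 59.1% in the last.

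Peaks of all classes behaved differently over the same introns. The share of intron bases under any peak rose from 18.6% in the first quintile to 36.3% in the fourth and 35.6% in the last, while bases under members stayed between 4.45% and 4.85%. Members made up 25.3% of the peak bases in the first quintile and 12.5% in the last. The rest of the covered intron bases lay under peaks outside the set.

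**Figure D2:**
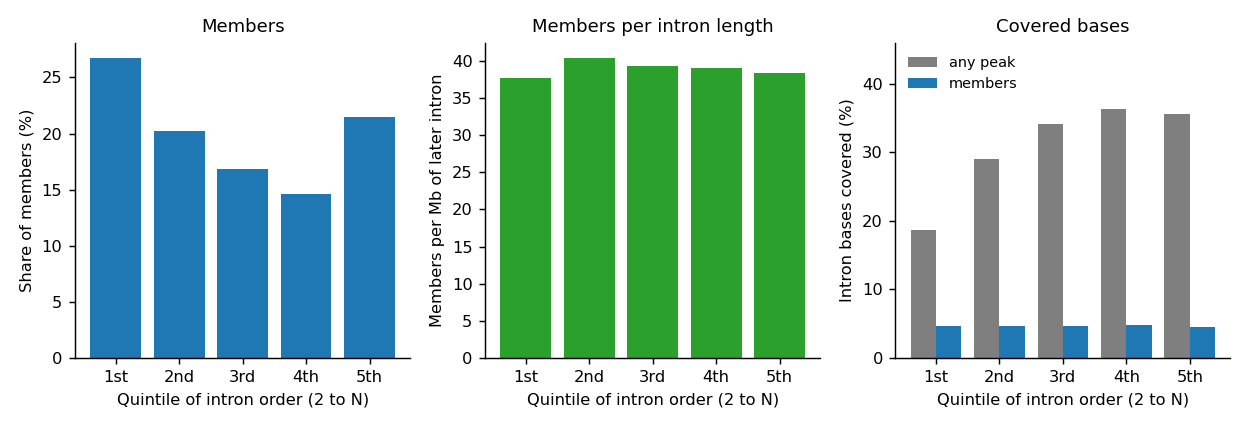
Left, percent of the 10294 members in each quintile of the intron order; middle, members per Mb of later intron in 2580 host transcripts; right, percent of the same intron bases under any peak (grey) and under members (blue). Members per Mb stay between 37.8 and 40.5 while the bases under any peak go from 18.6% to 36.3%. Intron length differs between the quintiles and is not held fixed.

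Of the 997 later-intron peaks assigned to longer transcripts, the median position was 0.25 (interval 0.23 to 0.25), 37.4% lay in intron 2 and 6.22% in the last intron. Their median position along the gene body was 0.309. The nearest TSS is part of the rule that separates them from the members, and a peak whose nearest TSS belongs to a long transcript tends to lie near that transcript's start, so this difference is partly built into the choice. It was not tested.

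The order of an intron depends on the transcript used to count it. For 8643 members (84.0%) the peak lay in introns of 2 or more transcripts of the same gene. The count would move by 0.2 or more between these transcripts for 4833 members (46.9%). Taking the lowest position of each member gave a median of 0.286 and taking the highest a median of 0.706. For 1641 members (15.9%) the peak also lay in intron 1 of another transcript of the gene.

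Intron length separated introns with and without members more than their order did. The introns counted were those of a single transcript per gene with a member, the transcript with most members. Genes without a member are left out, so the shares do not describe later introns in general. A member lies wholly inside its intron, so short introns have little room for one. Part of the rise with length is therefore built in. Of 11700 later introns under 1 kb, 40 (0.342%) held a member. The share was 9.55% at 2 to 5 kb, 35.4% at 5 to 10 kb, 61.4% at 10 to 20 kb and 70.5% at 20 to 50 kb. Above 50 kb it was 59.7%.

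Counted per Mb, members were most frequent in introns of 10 to 20 kb (70.1 per Mb) and less frequent in introns under 1 kb (7.05) and over 50 kb (18.4). The share of bases under any peak instead fell with intron length, from 68.7% under 1 kb to 29.5% at 10 to 20 kb and 5.58% above 50 kb. In introns under 1 kb, members made up 0.388% of the bases under peaks. The longest later intron of each transcript held 39.4% of the members and 35.6% of the later-intron bases, and the 3 longest held 71.9% of the members and 63.5% of the bases.

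**Figure D3:**
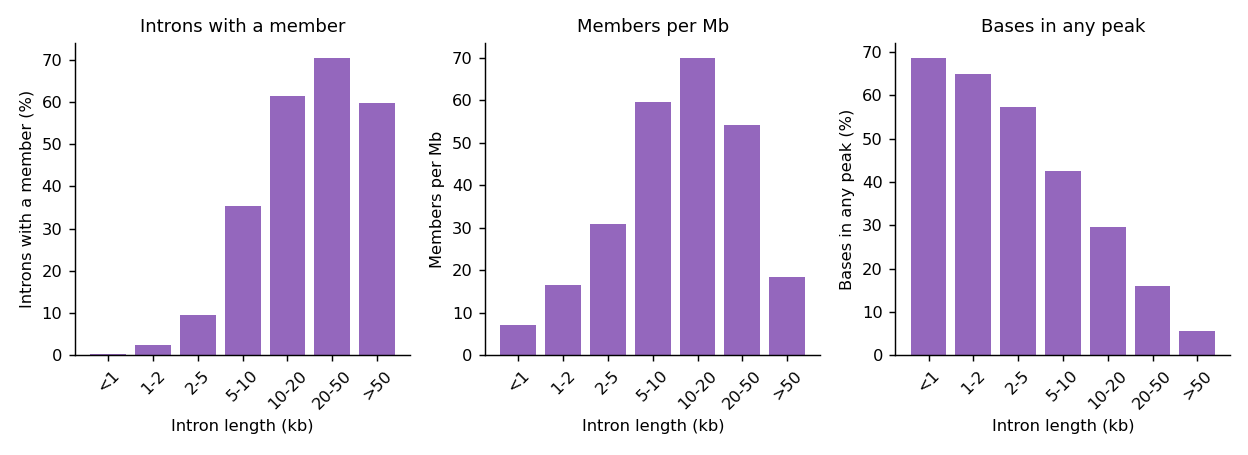
Later introns, by length in kb, of the host transcripts that represent each gene with a member: percent of introns with a member (left), members per Mb of intron (middle) and percent of intron bases under any peak (right). Introns under 1 kb hold a member in 0.342% of cases although 68.7% of their bases are under a peak, and introns of 20 to 50 kb hold one in 70.5%.

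The host intron of a member was 15888 bp long at the median (interval 15507 to 16330). A member covered 5.92% of its intron at the median, and 275 members (2.67%) covered 50% or more. The members lay a median of 5340 bp from the exon before them and 6414.5 bp from the exon after them, and 56.6% (interval 55.6 to 57.5) were nearer to the exon before. Their midpoints were fewer at the intron's end than at its start, with 8.54% in the first decile of the intron, 12.8% in the fourth and 3.05% in the last.

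First-intron peaks were spread evenly by the same measure, with 49.6% (interval 47.9 to 51.2) nearer to the exon before. Within 200 bp of an exon lay 812 members (7.89%) and 1 of 3663 first-intron peaks. Peaks near a TSS fall in the promoter class, and no first-intron peak lay closer than 1437 bp to the exon before. For members the smallest such distance was 0 bp. These differences between members and first-intron peaks are therefore partly built into the classes. In Eif4g3, which encodes a scaffold of translation initiation, a member of 686 bp began 8 bp after the exon.

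Members were narrow beside exon peaks. Their median width was 866 bp (interval 851 to 883), with quartiles of 444 and 1509 bp and a range of 247 to 15709 bp. Exon peaks had a median width of 2413 bp (interval 2342 to 2479), first-intron peaks 767 bp (interval 734 to 791) and later-intron peaks of longer assigned transcripts 862 bp. A width over 5000 bp was found for 160 members (1.55%) and for 21.9% of exon peaks. Since a wide peak is more likely to reach an exon and change its class, width and class are not independent measures.

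The 10294 members held 6.85% of all peak bases. The 928 members under 300 bp held 2.05% of the members' bases, and the 160 of 5000 bp or more held 8.28%. No peak in the table was narrower than 247 bp. Width was nearly flat along the intron order, with medians of 882 bp in the first quintile, 883 bp in the third and 833 bp in the last (Spearman correlation across members −0.02). It also did not follow the length of the host intron (Spearman correlation 0.03). Members share 1 library, so these correlations are descriptions across peaks.

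The widest member was in intron 2 of 10 of Nfix, a nuclear factor I transcription factor, and spanned 15709 bp, 35.9% of its intron. It was followed by 13682 bp in Wac, an adaptor for histone H2B ubiquitination, and 11608 bp in intron 2 of Top1, DNA topoisomerase I. The member in Aff1, a scaffold of the super elongation complex, was 9770 bp wide. Bcl11b and Runx1, which encode transcription factors, held members of 9508 and 9007 bp. Pdzd2, Oxct1 (a mitochondrial enzyme of ketone body use), Fam83b and Arhgap10 (a GTPase-activating protein) held the other 4 of the 10 widest, at 8500 to 9571 bp.

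Fold enrichment is the peak caller's ratio of ChIP signal over local background. Its median in members was 2.77 (interval 2.76 to 2.77; range 2.32 to 4.63). The median was 2.74 for first-intron peaks, 2.76 for later-intron peaks of longer assigned transcripts and 2.96 for exon peaks. A fold enrichment of 3 or more was reached by 18.6% of members, 585 of 3663 first-intron peaks and 44.7% of exon peaks. A −log10 P of 5 or more was reached by 278 members (2.70%) and by 12.8% of all peaks. On the same scale, the median q-value was 1.80 in members (lower quartile 1.58) and 2.08 in all peaks. The lowest value of any peak was 1.31, so many members lay near the lower end of the deposited peaks. Fold enrichment did not follow intron order (medians of 2.76 to 2.78 in the 5 quintiles, Spearman correlation −0.01) and was weakly correlated with width (Spearman correlation 0.25).

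The members with the highest fold enrichment were rich in repeats. Repeat-masked bases, as marked in the reference genome, made up 25.1% of a member at the median. The median was 24.3% at a fold enrichment of 2.6 to 2.8, 27.5% at 3.0 to 3.5, 34.8% at 3.5 to 4.0 (151 members) and 68.2% at 4.0 and over (13 members). Of these 13 members, 10 were repeat-masked over 50% or more of their length, against 17.6% of all members. The part of the repeats in the fold enrichment was not tested.

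The 10 highest members show the mix. The Fam172a member (fold enrichment 4.63, 2251 bp) was repeat-masked over 87.2% of its length, and the member in Nfatc1, a transcription factor of hair follicle stem cells (4.50, 442 bp), over 73.1%. Capn1, a calcium-activated protease (4.47), Eif4g3 (4.33), Prdm10 (4.21), Arid1b, a subunit of the SWI/SNF remodelling complex (4.20), Socs6 (4.10) and Txndc11 (4.06) also held high members with repeat shares between 51.3% and 73.9%. The exceptions were the members in Lrrc28 (4.11) at 19.5% and Zmiz1, a transcriptional co-activator (4.01), at 8.72%. Among the 10 widest members none was repeat-masked over 50% or more.

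**Figure D4:**
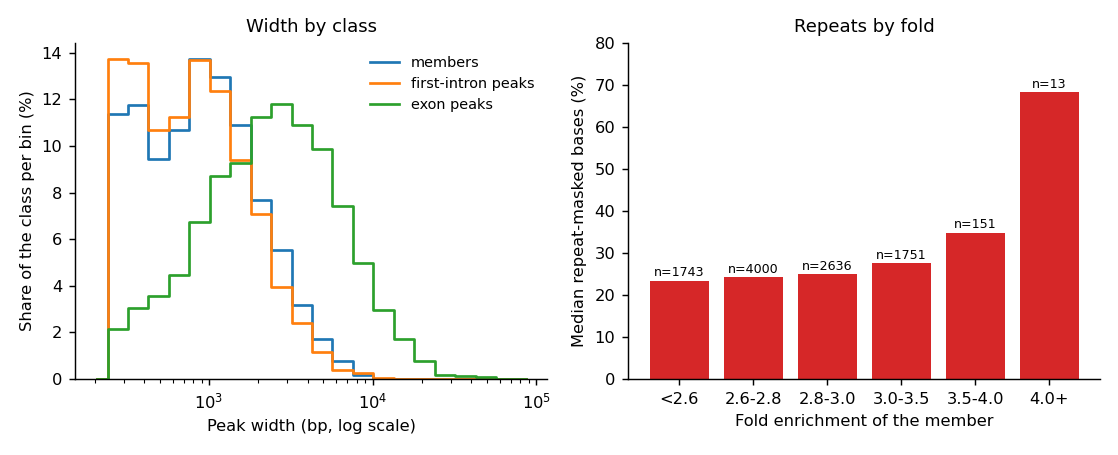
Left, peak width in bp (log scale) as the percent of each class per bin, for members, first-intron peaks and exon peaks; right, median percent of repeat-masked bases in members by fold enrichment, with the number of members above each bar. Exon peaks lie to the right of members (medians 2413 and 866 bp), and the 13 members with the highest fold enrichment have the highest median repeat share (68.2%).

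The base composition of members was close to that of the intron bases outside peaks. GC made up 43.7% at the median against 42.6% in the unmarked part of the intron. It was higher in the peak for 5891 of 10111 members (58.3%, interval 57.3 to 59.2) whose intron had 1000 bp or more outside peaks. In first-intron peaks the same share was 50.2% (interval 48.5 to 51.8), and in later-intron peaks of longer assigned transcripts 59.7%. Repeat shares were 25.1% in members and 25.2% in the unmarked part at the median. GC of the peak and of the unmarked part of its intron were correlated across members (Spearman correlation 0.62).

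Members were spaced from other peaks much as peaks in general were. The nearest other peak was a median of 1861 bp away, against 1763 bp for all peaks, 1494 bp for exon peaks and 3126 bp for first-intron peaks. Another peak lay within 2000 bp for 5454 members (53.0%) and within 5000 bp for 80.6%. The smallest gap between any pair of peaks in the table was 989 bp, which bounds the 169 members (1.64%) with a neighbour within 1000 bp from below. The nearest peak was another intron peak for 50.2% of members, an exon peak for 2060 members, a promoter peak for 19.3% and a 3′ UTR peak for 8.69%. For 1754 members (17.0%) no other peak touched the same intron.

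The members lay in introns of 3263 genes, of which 3142 (96.3%) were protein-coding. One member was found in 1348 genes (41.3%), 2 to 4 in 1276, 5 to 9 in 478 and 10 or more in 161. These 161 genes held 2403 members (23.3%). Counted by intron, 4331 introns of the transcripts used to represent each gene held 1 member, 1806 held 2 to 4 and 221 held 5 or more. On the sex chromosomes, X held 263 members and Y 11, in Uty (7), Eif2s3y (1) and Gm47283 (3).

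Atxn1, which encodes the transcriptional co-regulator ataxin-1, and Fgfr2, a receptor for fibroblast growth factors, held the most members with 46 each. The Atxn1 members lay in 6 introns, had a median width of 929.5 bp and a fold enrichment of 2.52 to 3.26, and 11 of the 46 were assigned to Atxn1. Of the Fgfr2 members, 39 lay in 1 intron of a model that stretches over 2960900 bp and takes in neighbouring genes, and none of the 39 was assigned to Fgfr2. The other 7 lay in 2 introns of a transcript of 103813 bp, and all 7 were assigned to Fgfr2. The count of 46 therefore does not describe Fgfr2 alone. Without the 46 members 10248 members remained, with a median position of 0.45.

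Vps13b, a lipid transport protein of the Golgi, held 41 members in 23 introns. Tenm4 and Tenm2, which encode teneurin adhesion receptors, held 37 in 15 introns and 27 in 13. Gphn (gephyrin, also needed for molybdenum cofactor synthesis) held 29 in 18 introns, Dennd1a, an exchange factor for a Rab GTPase, 28 in 10 and Map2k5, the kinase that activates ERK5, 27 in 12. Fam172a held 26 in 9 introns and Vti1a, a SNARE protein of vesicle fusion, 26 in 4. The genes differed in where their members lay: the median position was 0.24 in Tenm2, 0.60 in Map2k5 and 0.67 in Vti1a.

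**Figure D5:**
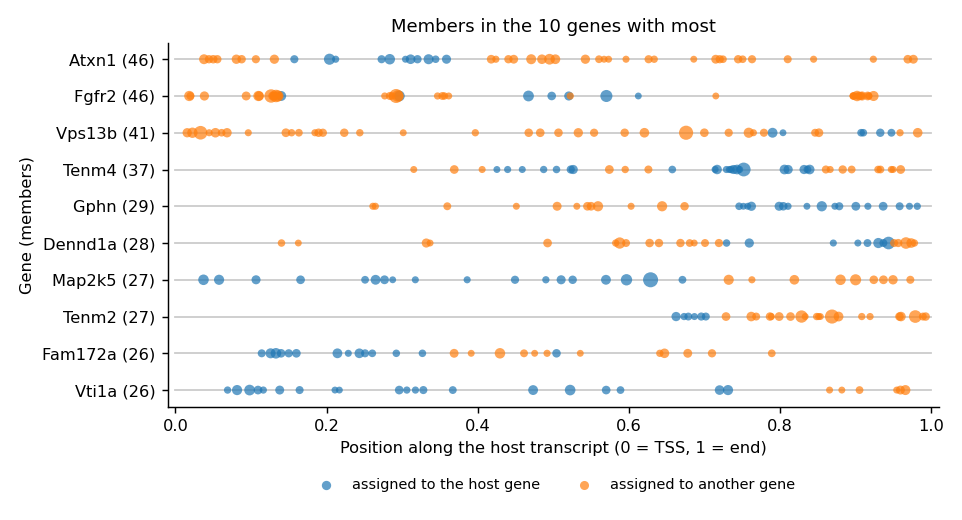
Members of the 10 genes with most members, each drawn along its own host transcript from the TSS (0) to the end (1). Each point is a member, and its size grows with peak width. Blue points were assigned to the host gene and orange points to another gene, and the number of members stands in brackets. The lines of Fgfr2, Fam172a and Vti1a hold members of different host transcripts, so positions on these lines do not share 1 scale. In Vps13b 6 of 41 points are blue and in Vti1a 20 of 26.

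In a few genes most later introns held a member. Among genes with 8 or more introns, Fam172a carried members in 8 of 9 later introns of 1 transcript (88.9%), Galk2, a sugar kinase, in 7 of 8 and Gphn in 18 of 22. Lrrc28 and Ric8b, a chaperone of G protein subunits, each had members in 6 of 8.

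The share of genes with a member differed with gene length. Of all protein-coding genes with 3 or more exons, 3142 of 18703 (16.8%) held one. The share was 0.328% for genes under 10 kb, 16.7% at 20 to 50 kb, 40.5% at 50 to 100 kb, 50.2% at 100 to 200 kb and 38.0% over 200 kb. Among genes with any peak on the body, it went from 0.773% under 10 kb to 79.6% over 200 kb. It also differed with how much of the body lay in peaks: 44.2% of genes with 10 to 25% of the body covered held a member and 5.81% of genes covered over more than 75%. Dsp (desmoplakin), a plaque protein of desmosomes, was of the second kind, with 1 peak over 98.6% of its body and no member.

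The cell type was checked with lists of marker genes, by whether any peak lay on the gene body. All 22 basal keratinocyte genes and 24 of 28 genes of differentiated keratinocytes carried a peak, against 3 of 18 fibroblast genes, 3 of 14 melanocyte genes, 4 of 21 immune genes and 3 of 15 endothelial genes, and 57.8% of all protein-coding genes with 3 or more exons. Members were found in 8 of 22 basal (36.4%), 8 of 28 differentiated (28.6%) and 8 of 21 hair follicle genes (38.1%). They were found in 1 of 18 fibroblast genes (Mmp2, a matrix protease), 2 of 14 melanocyte genes (14.3%, Rab38 and Mitf) and none of the immune and endothelial genes. Over all protein-coding genes with 3 or more exons, 3142 of 18703 (16.8%) held a member, and 3142 of the 10811 with any peak. The melanocyte share was close to that of all genes. The parts that other cell types had in the members of Mmp2, Rab38 and Mitf were not tested.

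Among basal genes, Cdh1 (E-cadherin) held 7 members, all in 1 intron near the start of the gene, with a fold enrichment of 2.55 to 3.71. Lama3, a chain of the basement membrane protein laminin, also held 7, in 6 introns, and none was assigned to it. Itga6, the integrin that binds laminin, held 4 in 1 intron. Trp63, the master transcription factor of stratified epithelia, held 3 of up to 8000 bp. Dst and Egfr, with 15 and 20 peaks on their bodies, had no member. Among genes of differentiated keratinocytes, Sptlc3 held 11 members, Abca12, the lipid transporter of lamellar granules, 9, and Rora and Cers3, a ceramide synthase, 3 and 2. In the hair follicle list Nfatc1 held 9 members, Tcf7l2 8, and Lrig1 and Runx1 3 each.

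Groups of genes differed in how many held a member. Chromatin regulators held one in 26 of 55 genes (47.3%), ubiquitin ligases and deubiquitinases in 27 of 63 (42.9%), DNA replication and repair in 25 of 59 (42.4%), PI3K/AKT/mTOR signalling in 24 of 64 (37.5%) and membrane traffic in 24 of 68 (35.3%). Genes of junctions and the cytoskeleton held one in 16 of 56 (28.6%), of glycolysis, AMPK and lipid metabolism in 13 of 48 (27.1%), and of RNA polymerase II and elongation in 9 of 35 (25.7%). Splicing factors (8 of 58, 13.8%), translation factors and tRNA synthetases (7 of 51, 13.7%) and ubiquitously expressed genes (3 of 29, 10.3%) lay below the 16.8% of all genes. In each of these lists 93.8% to 100% of genes carried a peak of some class, against 57.8% of all genes, so the 16.8% is a low point of comparison. Of the 10811 genes with any peak, 3142 held a member. The shares of the junction, metabolic and elongation lists (25.7% to 28.6%) did not lie above that share. The lists also differed in gene length, with median lengths of 78700 bp among the ubiquitin genes, 77762 bp among the chromatin regulators and 10703 bp among the ubiquitously expressed genes. The median length was 27128.5 bp among the splicing factors and 23072.5 bp in the metabolic list. The part of gene length in these shares was not tested.

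The PI3K/AKT/mTOR list, the pathway the study followed, held 128 members. Mapkap1, a subunit of mTOR complex 2, held 19 in 6 introns, with a median width of 780 bp and a fold enrichment of 2.57 to 3.42. Rptor, the defining subunit of mTOR complex 1, held 11 in 6 introns with a median fold enrichment of 2.91. Inpp4b, a phosphoinositide phosphatase, held 11 and Deptor, an inhibitor of mTOR, 9. Egfr held none. Of the 3 genes tested by ChIP-qPCR in the study, Lama4, a laminin chain, held 8 members in 8 introns, 251 to 1589 bp wide with a fold enrichment of 2.63 to 3.12, and peaks of all classes covered 6.09% of its body. Thbs3 had 1 peak and no member, and no peak lay on Gng4. By ChIP-qPCR, the study reported the mark above the IgG control at the bodies of all of these genes, Gng4 included. The lack of a called peak on Gng4 differs from that result, and the reason was not tested.

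In other lists, Arid1b held 15 members, Tet3, a methylcytosine dioxygenase, 10, and Hdac4 and Ash1l, a histone methyltransferase, 8 and 7. Vps13b led the membrane traffic list with 41, followed by Ap3b1 and Exoc2 with 9 each. Msh3, a mismatch repair protein, held 10, the helicase Wrn 9 and Prkdc, the kinase of end joining, 8. Eif4g3 held 18 of the 27 members of the translation list. Me1, malic enzyme, held 16 of the 47 members of the metabolic list, in 7 introns, and Acaca, acetyl-CoA carboxylase, 9. Nedd4l held 9 and Wwp2 7 among the ubiquitin ligases. Rbfox2 and Mbnl2 held 7 and 6 among the splicing factors, Cstf3 4 among elongation genes and Iqgap1 5 among junction genes. Hprt, the X-linked purine salvage enzyme, held 3 of the 5 members of the ubiquitously expressed list. Ncor1 and Nsd3, with 10 and 6 peaks, and Picalm, with 5, had none.

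With the length of the host transcript, width and fold enrichment of members varied modestly, while position and assignment varied more. The median width was 742 bp in host transcripts under 20 kb, 961 bp at 50 to 100 kb and 831 bp at 200 kb and over, and the median fold enrichment was 2.72, 2.78 and 2.75. The share in the last intron fell from 48.1% under 20 kb to 6.72% at 200 kb and over, and the share lying in the assigned gene from 81.9% to 47.8%. The host intron lengthened from 5724 to 26381 bp at the median.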

How the data were processed

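Per the labels and the study's methods, H3K36me3 ChIP-seq reads from KCs were aligned to GRCm38 with Bowtie2 2.2.6, peaks were called with MACS2 2.1.1 and annotated with ChIPseeker (no version stated). The deposited table gives 1 row per peak with its interval, fold enrichment (a ratio), P-values and q-values on the −log10 scale, and an annotation made by the authors: class, intron number, and the nearest-TSS gene with its length in bp. Sequencing depth and the use of the input in peak calling are not given in the sources used here, so precision from depth is unknown.

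Members and gene lists were chosen with earlier results of these data known. Peaks were joined to GENCODE vM21 by the transcript named in the annotation. Intron position was (k−1)/(N−1) for intron k of N. For counts over introns, each gene was represented by its transcript with the most members. Gene lists held genes with 3 or more exons. Shares have exact (Clopper-Pearson) and medians order-statistic 95% intervals. No test was made. Genes were named by rule: the 10 with most members, the 10 widest and the 10 highest members, the 5 with the most introns hit among genes with 8 or more introns, up to 4 with and 2 without members per list, those at the threshold, and those of the ChIP-qPCR; AT-AC introns, Eri3, Exoc4, Tacc2, Vwa8 and the Y-linked genes were chosen after their values were seen. Sequence was read from the NCBI copy of GRCm38.p6 with pysam 0.24.0, repeats as its lower-case bases. Python 3.11.15, pandas 2.3.3, NumPy 2.4.6, SciPy 1.17.1 and matplotlib 3.10.9 were used, and the scripts were tested on simulated data.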

Additional observations from a re-analysis of the deposited data

How the results depend on the processing

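With 1 library and a table of peaks, depth limits cannot be given, and the choice of length is the main limit: the rule cuts on a transcript that is often not the host. Of 81 alternative values, 38 stayed within the 95% interval of the reported value (counts: within 1.5 times) and 43 did not. Merging peaks over gaps of up to 1000 bp left its 7 values, and weighting by width its 1 value (position), within these limits. With −log10 P of 5 or more, 278 members in 259 genes remained, with a median position of 0.333, a width of 1233 bp, a fold enrichment of 3.53 and 0.360% with a peak within 1000 bp. With a fold enrichment of 3 or more, 1915 members in 1295 genes remained, 10.4% in the last intron, with a width of 1192 bp, a fold enrichment of 3.15, 62.6% in the assigned gene and 1.10% with a peak within 1000 bp. An assigned length below 50000 bp gave a position of 0.5, 12.6% in the last intron and 56.0% in the assigned gene, and one below 200000 bp gave 0.429 and 63.1% in the assigned gene. Cutting instead on the host gene, below 100000 bp, gave 4272 members in 2115 genes, 16.9% in the last intron, a width of 910 bp, a fold enrichment of 2.78, 70.0% in the assigned gene and 2.13% with a peak within 1000 bp. Members in the assigned gene only numbered 6280, with a position of 0.385, 8.66% in the last intron and 1.97% with a peak within 1000 bp. With 1 value per gene, 15.3% lay in the last intron, 66.7% in the assigned gene and 1.99% had a peak within 1000 bp. Counting position as k/N gave 0.5 and along the gene body 0.590. A gap of 500 bp gave 0% with a neighbour, as no gap is that small, and one of 2000 bp gave 53.0%. Chosen after seeing the data, leaving out Fgfr2 moved no value, and keeping the members whose host transcript was below 100000 bp gave 4658 members, a position of 0.476, 17.0% in the last intron, a width of 905 bp, a fold enrichment of 2.78, 70.8% in the assigned gene and 2.104% with a peak within 1000 bp. The cause of these shifts was not tested, except that fewer peaks enter under a stricter threshold. Not run, since the value is fixed by construction: the share in the assigned gene among members of the assigned gene, the 1000 bp share after merging, and counts of members and genes with 1 value per gene. No paired analysis was possible because there is 1 ChIP library.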
